A study of Rattus norvegicus with 2 samples.

Results

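Among the 4052 lncRNAs assembled from rat hypothalamus, 477 were both short and rich in repeats. A lncRNA was counted here when its deposited sequence was 200 to 400 nt long and at least 50% of its bases were written in lower case, the usual mark for soft-masked repeats. What the lower case marks is not given in the sources used here. The rule used the sequences alone and no expression value. The 477 transcripts lay at 458 loci, made up 11.8% of all lncRNAs, and were compared with the 1827 lncRNAs of the same length range with less lower case (repeat-poor) and the 1748 lncRNAs above 400 nt. RNA was taken from the hypothalamus of female Sprague Dawley rats before puberty (postnatal day 25) and at puberty (postnatal day 35), with 3 rats per stage. Vaginal opening marked puberty in the study, and its supplement took rats in first estrus, read from vaginal smears, as pubertal. The labels name no genetic change or treatment. The files hold 1 library per stage, so no difference between the stages could be tested. Intervals of shares and of their differences were taken over transcripts, and those of the FPKM ratio of 1 RNA over its fragments, so none of them holds the spread between rats. All 12 hypothalamic marker genes were above 0 in both libraries, 10 higher and 2 lower at puberty, with a median log2 ratio of 0.31. They summed to 2701 FPKM before and 4106 FPKM at puberty (FPKM, fragments scaled for transcript length and library size), the 4 red blood cell genes to 6406 and 12539, the 6 pituitary genes to 31.6 and 44.4, the 4 choroid plexus genes to 35.6 and 29.8, and the 3 thalamic genes to 166 and 132. Higher at puberty were 4 of the red blood cell genes, 5 of the pituitary, 2 of the choroid plexus and 0 of the thalamic genes. Of the pituitary genes Prl and Fshb were listed at 0 before puberty. The part of these tissues in the values below was not tested.

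Masked repeats of a mammalian genome are mostly copies of mobile elements, and also include simple repeats and copies of small RNA genes. Short interspersed elements (SINEs) of rodents, such as ID, B1 and B2, descend from small RNAs transcribed by RNA polymerase III and carry 2 internal promoter boxes, A and B. Many lncRNAs hold such copies, and silencing of repeats by heterochromatin and decay of short nuclear RNA by the exosome are known to keep their transcripts low.

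The sequences of 7 transcripts are shown first because the values below turn on them. They are the highest in either library (TCONS_00438975 and TCONS_00268614) and 1 of the highest that was at 0 at puberty (TCONS_00028158). Among members above 0 in both libraries, TCONS_00029673 had the largest rise in log2 ratio. TCONS_00000088 and TCONS_00000089, a pair from 1 locus, had some of the largest falls among those members. TCONS_00407177 matches sequence across the start of a gene. They are written 5′ to 3′ as deposited, with unmasked bases in capitals and masked bases in lower case.
TCONS_00438975: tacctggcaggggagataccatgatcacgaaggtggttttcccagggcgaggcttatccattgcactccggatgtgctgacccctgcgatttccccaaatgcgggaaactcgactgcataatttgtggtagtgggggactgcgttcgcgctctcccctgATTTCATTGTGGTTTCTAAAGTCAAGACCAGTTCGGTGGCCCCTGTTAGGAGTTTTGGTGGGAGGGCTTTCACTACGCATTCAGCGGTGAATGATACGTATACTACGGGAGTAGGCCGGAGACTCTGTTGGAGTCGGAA
TCONS_00268614: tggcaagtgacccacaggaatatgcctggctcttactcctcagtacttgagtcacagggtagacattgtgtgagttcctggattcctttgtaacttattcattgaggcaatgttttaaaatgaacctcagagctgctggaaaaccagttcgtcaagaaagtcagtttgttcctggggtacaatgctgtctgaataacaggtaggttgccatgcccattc
TCONS_00029673: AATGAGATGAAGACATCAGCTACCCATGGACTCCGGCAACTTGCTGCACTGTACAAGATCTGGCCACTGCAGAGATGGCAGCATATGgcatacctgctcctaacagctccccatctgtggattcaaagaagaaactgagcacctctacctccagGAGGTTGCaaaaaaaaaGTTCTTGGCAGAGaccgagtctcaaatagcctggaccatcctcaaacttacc
TCONS_00028158: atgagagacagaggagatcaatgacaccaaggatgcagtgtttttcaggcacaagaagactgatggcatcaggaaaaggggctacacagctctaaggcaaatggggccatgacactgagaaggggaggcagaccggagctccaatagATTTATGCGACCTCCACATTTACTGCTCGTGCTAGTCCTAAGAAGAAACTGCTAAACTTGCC
TCONS_00000088: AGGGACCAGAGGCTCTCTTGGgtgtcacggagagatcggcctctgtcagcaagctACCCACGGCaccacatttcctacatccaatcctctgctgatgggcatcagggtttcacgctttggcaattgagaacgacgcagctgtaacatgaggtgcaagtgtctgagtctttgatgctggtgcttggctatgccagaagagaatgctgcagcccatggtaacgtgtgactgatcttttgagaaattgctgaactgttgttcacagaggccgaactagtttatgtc
TCONS_00000089: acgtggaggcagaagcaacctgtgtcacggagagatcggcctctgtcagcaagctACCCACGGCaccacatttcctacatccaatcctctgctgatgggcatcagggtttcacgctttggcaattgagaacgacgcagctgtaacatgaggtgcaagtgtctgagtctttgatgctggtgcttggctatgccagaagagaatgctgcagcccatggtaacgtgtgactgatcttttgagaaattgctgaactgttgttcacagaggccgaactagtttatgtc
TCONS_00407177: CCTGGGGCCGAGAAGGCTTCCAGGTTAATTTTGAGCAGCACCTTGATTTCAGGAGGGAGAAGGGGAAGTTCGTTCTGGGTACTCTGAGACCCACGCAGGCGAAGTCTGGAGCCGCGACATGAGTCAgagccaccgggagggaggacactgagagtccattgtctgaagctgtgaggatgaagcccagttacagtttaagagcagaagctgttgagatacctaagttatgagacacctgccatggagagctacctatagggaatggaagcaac
In TCONS_00438975 the 159 masked bases form the 5′ part of the RNA. By textbook knowledge they read like U1 snRNA, the RNA that pairs with 5′ splice sites, but no snRNA sequence was compared here. TCONS_00268614 was masked from end to end. TCONS_00000088 and TCONS_00000089 are each 283 nt long and share the last 262 bases, so they differ only in their first 21 bases, which are unmasked in TCONS_00000088 and masked in TCONS_00000089.

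Some members share stretches with lncRNAs of many other loci. The stretches of 4 members are given because each was found in many lncRNAs, though in at most 5 members, in lower case, with the SINE motifs searched for in capitals.
TCONS_00133134 bases 1 to 90: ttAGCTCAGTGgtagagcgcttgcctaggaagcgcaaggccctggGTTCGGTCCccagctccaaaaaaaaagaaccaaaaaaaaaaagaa
TCONS_00444202 bases 1 to 68: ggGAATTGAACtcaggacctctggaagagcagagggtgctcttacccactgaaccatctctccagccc
TCONS_00285047 bases 167 to 251: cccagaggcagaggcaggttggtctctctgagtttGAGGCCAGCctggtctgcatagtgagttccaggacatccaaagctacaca
TCONS_00031260 bases 134 to 260: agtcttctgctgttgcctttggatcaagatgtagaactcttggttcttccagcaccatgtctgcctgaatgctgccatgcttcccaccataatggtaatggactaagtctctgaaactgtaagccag
The first holds both ID motifs, AGCTCAGTG and GTTCGGTCC, on the given strand. The second holds the B box motif of B2 elements, GTTCNATTC, on the opposite strand. The third holds GAGGCCAGC, a B1 motif added after the sequences were seen. The fourth holds none of the motifs and was given no repeat name.

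Every one of the 477 members was above 0 before puberty, and most were at 0 at puberty. Prepubertal FPKM ranged from 0.491 to 282, with a median of 2.78. At puberty 90 members (18.9%, Wilson 95% interval 15.6 to 22.6) were above 0, with FPKM from 0.308 to 339 and a median of 2.34 among these 90. The other 387 (81.1%, interval 77.4 to 84.4) were above 0 in the prepubertal library alone, and 0 were above 0 in the pubertal library alone. Of all 4052 lncRNAs, 45.4% were above 0 at puberty and 54.6% before puberty alone. Only 33 of the 4052 were at 0 before puberty, and 32 were above 0 at puberty alone. In short repeat-poor lncRNAs, 84.0% were above 0 before puberty alone. In tissue RNA, fewer cells that make an RNA and less of it per cell cannot be told apart. Between the libraries, 355 members were at least 2-fold lower in FPKM + 1 at puberty, 74.4% of members, beside 45.6% of all lncRNAs. At least 2-fold higher were 5 members, 1.05% of members, beside 2.27% of all lncRNAs. The median log2 ratio of FPKM + 1, pubertal over prepubertal, was -1.59, beside -0.88 over all lncRNAs. Of the 355 lower members, 341 were listed at 0 at puberty and 14 were above 0.

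**Figure D1:**
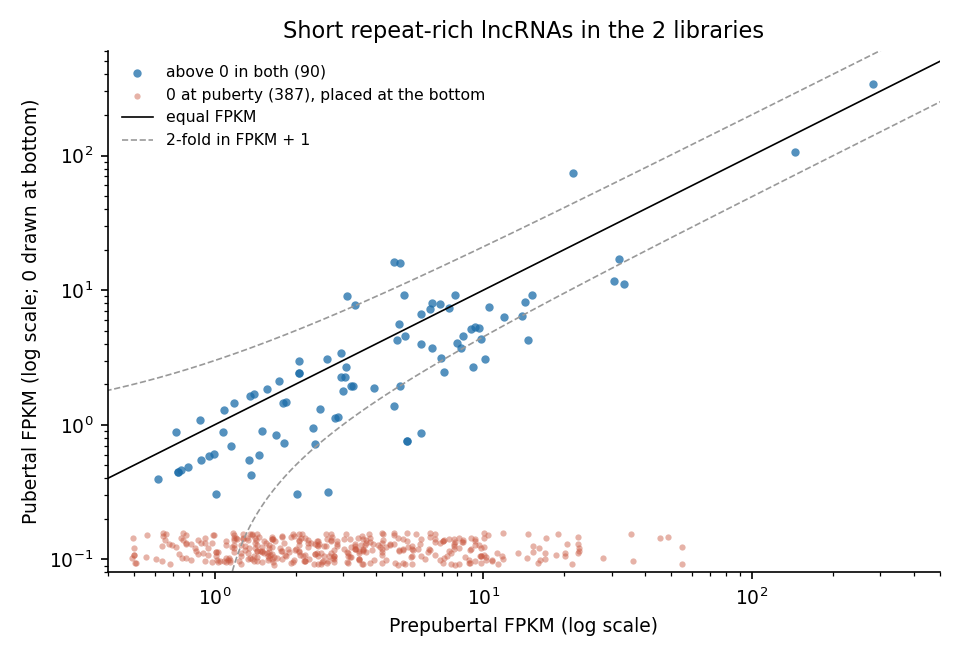
Each point is 1 of the 477 short repeat-rich lncRNAs, with prepubertal FPKM on the x axis and pubertal FPKM on the y axis, both on log scales; the solid line marks equal FPKM and the dashed lines 2-fold in FPKM + 1. The 90 blue points were above 0 in both libraries, and the 387 red points were at 0 at puberty and are placed at the bottom with random height.

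The values of these short RNAs moved in whole steps, each of which corresponds to 1 sequenced fragment. At a given length the same FPKM recurred in many transcripts, and higher values were multiples of it. In the prepubertal library 1 fragment stood for 22.7 FPKM at 200 nt, 2.78 FPKM at 250 nt, 0.947 FPKM at 300 nt and 0.335 FPKM at 400 nt. One fragment stood for 1.12 times more FPKM in the pubertal library at 200 nt and 1.23 times more at 400 nt. Within 0.02 of a step, the prepubertal FPKM of 437 members (91.6%) came out as a whole number from 1 to 20. Of the others, 3 were above 20 fragments and 37 were not whole, and 30 of these 37 lay at loci with more than 1 transcript, where reads can be split between transcripts. Exactly 1 fragment lay behind the prepubertal FPKM of 234 members (49.1%, interval 44.6 to 53.5) and exactly 2 behind that of 119. The median prepubertal FPKM of all members, 2.78, is the value of 1 fragment at 250 nt.

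**Figure D2:**
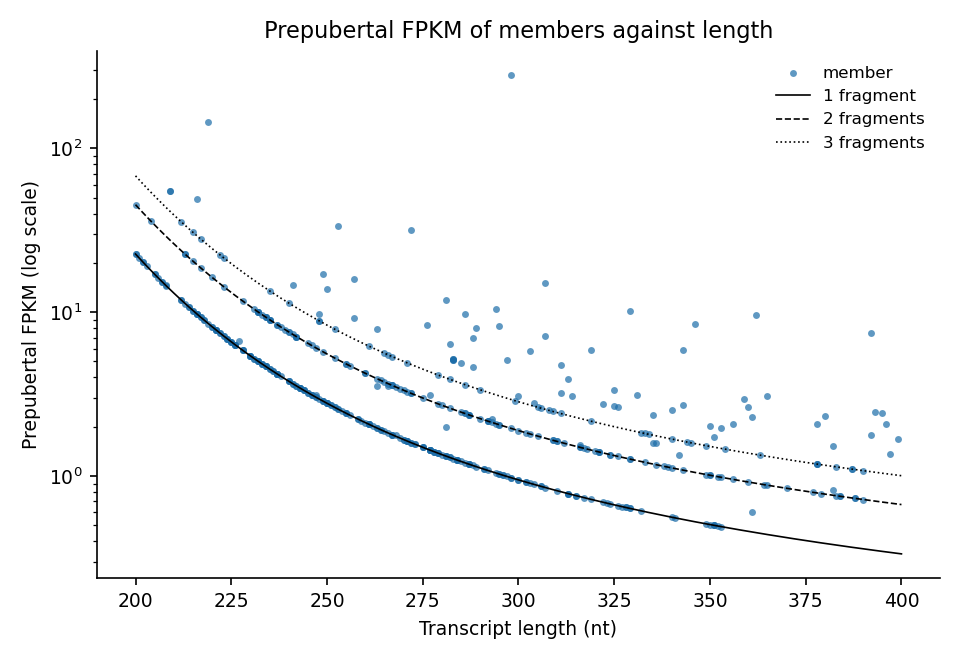
Prepubertal FPKM (y axis, log scale) of each member is plotted against its length in nt (x axis); lines mark the FPKM of 1, 2 and 3 fragments at each length. Points on the solid line are the 234 members that rest on 1 fragment, from 22.7 FPKM at 200 nt down to about 0.5 FPKM, the lowest values listed.

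The list holds few transcripts under about 0.5 FPKM before puberty. Of all 4052 lncRNAs, 3906 had a prepubertal FPKM of at least 0.47 and 1505 a pubertal FPKM of at least 0.47, and 2 were under 0.47 in both libraries. Among mRNAs, 3238 of the 19702 that were above 0 before puberty lay under 0.47 FPKM there. All 477 members were at or above 0.47 before puberty and 82 at puberty. Whether lncRNAs were selected on their prepubertal level is not given in the sources used here, and the part of such a selection in the fall of the members was not tested. In contrast, mRNA transcripts above 0 in 1 library alone were 1043 before and 898 at puberty.

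Whether a member was seen at puberty went with how many fragments it had before. Of the 234 members with 1 prepubertal fragment, 12 (5.13%, interval 2.96 to 8.75) were above 0 at puberty. The count was 20 of 119 (16.8%) with 2 fragments, 11 of 42 (26.2%) with 3, 21 of 37 (56.8%) with 4 to 9 and 5 of 5 with 10 to 20. Short repeat-poor lncRNAs had 47 of 978 (4.81%) with 1 fragment, 61 of 408 (15.0%) with 2, 37 of 166 (22.3%) with 3, 66 of 120 (55.0%) with 4 to 9 and 16 of 17 (94.1%) with 10 to 20. In each of these 5 classes the Newcombe 95% interval of the difference included 0, from 0.322 percentage points (-2.33 to 4.13) with 1 fragment to 5.88 points (-37.8 to 27.0) with 10 to 20.

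**Figure D3:**
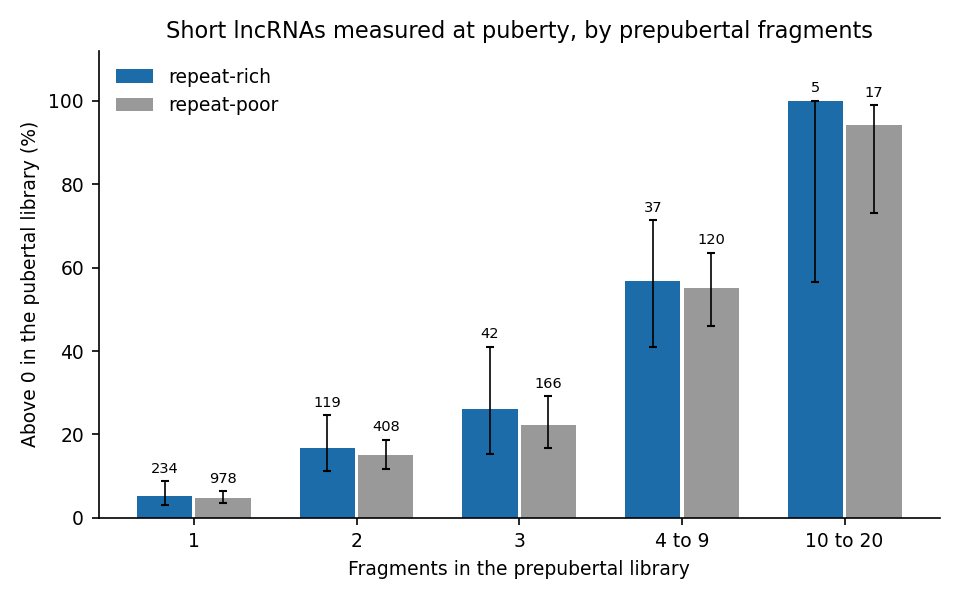
Bars give the percentage of short lncRNAs above 0 in the pubertal library (y axis) by the number of fragments in the prepubertal library (x axis), for repeat-rich and repeat-poor transcripts; error bars are Wilson 95% intervals and the number of transcripts stands above each bar. The share rises from 5.13% and 4.81% at 1 fragment to 56.8% and 55.0% at 4 to 9 fragments.

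At this depth a listed 0 allowed a sizeable level. A count of 0 allows up to 3 fragments, which is 76.2 FPKM at 200 nt and 1.24 FPKM at 400 nt in the pubertal library. Of the 387 members at 0 at puberty, 366 had a prepubertal FPKM at or below that floor, so a fall was not detectable for them. The other 21 were above it. Counting error before puberty adds to this. Of the 387, 368 had whole fragment numbers before puberty, 7 at most, and for 365 of these the exact 95% interval of the FPKM ratio, pubertal over prepubertal, reached 1. The other 3 had upper limits of 0.811 (TCONS_00404238, 16.03 FPKM from 7 fragments, then 0), 0.856 (TCONS_00163797, 2.43 FPKM from 7, then 0) and 0.988 (TCONS_00111124, 17.2 FPKM from 6, then 0). They were singled out after their values were seen, and no adjustment was made over the 368. With every listed 0 replaced by its floor, the median log2 ratio of members was 0.74. That sign follows from the replacement, since 234 members had 1 fragment and 119 had 2 before puberty, and most of these were then at 0. Putting 3 fragments on each 0 had to raise them, so the value gives no direction for the members. Over all members, 1372 fragments were counted before puberty and 547 at puberty, a ratio of 0.399, where equal FPKM would give 0.841. TCONS_00438975 alone held 288 and 290 of these fragments. Without it the totals were 1084 and 257 and the ratio 0.237. In repeat-poor lncRNAs the ratio was 0.436, and 0.318 without their own highest transcript.

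The highest member in both libraries was TCONS_00438975 (XLOC_383297, 298 nt), at 282 FPKM before and 339 FPKM at puberty. Its FPKM ratio was 1.20 (exact 95% counting interval 1.02 to 1.42). TCONS_00268614 (XLOC_238574, 219 nt) came next, with 145 and 107 FPKM from 17 and 11 fragments, a ratio of 0.737 (interval 0.312 to 1.67) that includes equal levels. TCONS_00407177 (272 nt) had 31.9 and 17.0 FPKM from 20 and 9 fragments, a ratio of 0.531 (interval 0.213 to 1.22). These 3 RNAs stood among the 5 highest at puberty and had at least 9 fragments in each library.

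The 5 highest members at 0 at puberty rested on few fragments before it. TCONS_00028158 and TCONS_00490067, both 209 nt long but at different loci, were each at 55.1 FPKM before puberty, which is 4 fragments, and at 0 at puberty. The upper limit of their FPKM ratio was 1.71, so equal levels are included. TCONS_00071156 (216 nt) had 48.8 FPKM from 5 fragments and then 0, with an upper limit of 1.24. TCONS_00421899 (200 nt) and TCONS_00302379 (204 nt) had 45.3 and 36.01 FPKM from 2 fragments each and 0 at puberty, which is under the floor of 3 fragments. For these 5 RNAs a level of 36.01 to 55.1 FPKM is thus 2 to 5 sequenced fragments, which need not be separate molecules since the methods name no molecular identifiers.

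Rises and falls among the 90 members above 0 in both libraries were mostly within counting error. Of the 90, 26 were higher and 64 lower at puberty on the log2(FPKM + 1) scale. TCONS_00029673 (223 nt) had the largest rise on that scale, with a log2 ratio of 1.73. It went from 21.5 to 73.6 FPKM or from 3 to 9 fragments, with an FPKM ratio of 3.43 (interval 0.855 to 19.7). TCONS_00419582 (234 nt) had 4.67 FPKM before and 16.1 FPKM at puberty, and its log2 ratio of 1.59 stands on 1 and 3 fragments. Its FPKM ratio was 3.45 (interval 0.277 to 181). TCONS_00011472 (285 nt) went from 4.91 to 16.03 FPKM, from 4 to 11 fragments, with a ratio of 3.27 (interval 0.968 to 14.1). All 3 intervals of the FPKM ratio included 1.

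Among the 90 members above 0 in both libraries, the largest falls came from transcripts at loci with several transcripts. TCONS_00134895 (319 nt) fell by 1.88 on the log2 scale, from 5.85 to 0.866 FPKM, or from 8.14 to 0.998 fragments. TCONS_00000088 and TCONS_00000089 had the same values, 5.20 and 0.756 FPKM, and fell by 1.82 on the log2 scale. Each stood for 0.5002 fragments at puberty, so the pair shared 1 fragment of the sequence they have in common. Of the 90 members, 64 had whole numbers from 1 to 20 in both libraries and 2 had more than 20 fragments, which were rounded. The counting interval of the FPKM ratio of these 66 lay off 1 for 2, TCONS_00438975 (above) and TCONS_00330272 (below). TCONS_00330272 was singled out after its values were seen. It went from 10.2 to 3.08 FPKM, from 16 to 4 fragments, a ratio of 0.303 (interval 0.0737 to 0.939). No adjustment was made over the 66 intervals.

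The values went with length. Members of 200 to under 240 nt had a median prepubertal FPKM of 8.91 and 69.0% of them rested on 1 fragment, while 9.48% (11 of 116) were above 0 at puberty. From 320 to 400 nt the median FPKM was 1.21, 18.4% rested on 1 fragment and 37.9% (39 of 103, interval 29.1 to 47.5) were above 0 at puberty. Repeat-poor lncRNAs went from 5.92% to 34.7% over the same classes. FPKM and the number of fragments thus ran in opposite directions over length. The share seen at puberty rose somewhat with the share of lower case, with intervals that overlapped. It was 15.6% (interval 13.7 to 17.6) for short lncRNAs under 25% lower case and 17.1% (interval 13.9 to 21.0) from 25 to under 50%. For members from 50 to under 75% it was 17.6% (51 of 289, interval 13.7 to 22.5). From 75 to 100% it was 20.7% (39 of 188, interval 15.6 to 27.1).

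Between repeat-rich and repeat-poor short lncRNAs the intervals of the differences included 0. Their median prepubertal FPKM were both 2.78. The share above 0 at puberty was 18.9% and 15.9%, a difference of 2.94 percentage points (Newcombe 95% interval -0.757 to 7.02). The share on 1 fragment was 49.1% and 53.5%, a difference of -4.47 points (interval -9.48 to 0.555), and the share at least 2-fold lower was 74.4% and 74.9%, a difference of -0.508 points (interval -5.04 to 3.72). Longer lncRNAs stood apart from both, with 83.4% above 0 at puberty and a median log2 ratio of -0.18. Near the 50% bound, TCONS_00419582, TCONS_00146467 and TCONS_00098182 lay just inside with 50%, 50% and 50.2% lower case. TCONS_00146467 had 1.42 and 0 FPKM and TCONS_00098182 had 2.42 and 0 FPKM. Just outside, with 49.8%, 49.7% and 49.6%, lay TCONS_00381218 (2.48 and 4.96 FPKM), TCONS_00249947 (0.486 and 0 FPKM) and TCONS_00383663 (1.26 and 0 FPKM).

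In most members the masked bases formed 1 block. One block held all lower case bases of 296 members, 165 had 2 blocks and 16 had 3 or 4. The longest block had a median of 170 nt (quartiles 137 and 216, range 65 to 399), and 44 members were masked throughout. With each RNA cut into 3 equal parts, the middle part was 84.2% lower case on average, the 5′ part 60.8% and the 3′ part 72.0%. At the first base 48.6% of members were masked and at the last base 60.2%. Both ends were masked in 114 members, at least 1 end in 405 and neither end in 72. GC content had a median of 47.8% (quartiles 44.3 and 50.8), beside 48.8% in repeat-poor lncRNAs, and CpG made up 1.499 per 100 bases beside 2.01. The longest reading frame from ATG to stop had a median of 81 nt (quartiles 45 and 126), beside 78 nt in repeat-poor and 171 nt in longer lncRNAs.

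Intact SINE boxes were found in few members and in few repeat-poor lncRNAs. Motifs were searched on both strands of the sequences, and shares are of transcripts with at least 1 match. AGCTCAGTG, from the A box region of ID elements, was in 5 members (1.05%), in 10 repeat-poor lncRNAs (0.547%), in 108 longer ones (6.18%) and in 1.32% of the 33469 RefSeq promoter windows of 300 bases. GTTCGGTCC, from the ID B box region, was in 1 member (0.210%), 0.109% of repeat-poor lncRNAs, 3.32% of longer ones and 0.687% of promoter windows. GGCTCAGTG, from the B2 A box region, was in 7 members (1.47%), 1.09% of repeat-poor lncRNAs, 4.92% of longer ones and 0.810% of windows. This motif shares its last 8 letters with AGCTCAGTG, but no site can count for both. GTTCNATTC, from the B2 B box region, was in 8 members (1.68%), 1.04% of repeat-poor lncRNAs, 5.61% of longer ones and 0.974% of windows.

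Of the B1 motifs, GGGCGTGGT was in 1 member and GTTCGAGGC in 0 of the 477, with 0.983% and 0.140% of promoter windows holding them. GAGGCCAGC, which overlaps GTTCGAGGC by 5 letters, was in 2 members (0.419%), in 19 repeat-poor lncRNAs (1.04%), in 62 longer ones (3.55%) and in 0.807% of windows. The members with it were TCONS_00285047 (1.35 and 1.63 FPKM) and TCONS_00490047 (1.87 and 0 FPKM), named after their values were seen. Longer lncRNAs offer more bases. Per 100 kb, AGCTCAGTG matched 3.75 times in members, 1.98 in repeat-poor and 5.02 in longer lncRNAs, with 5 matches in members. In the same order GGCTCAGTG matched 5.25, 3.97 and 3.68 times, with 7 matches in members. GTTCNATTC matched 5.999, 3.77 and 4.52 times, with 8 matches in members. AATAAA, the polyadenylation hexamer, was in 94 members (19.7%), 17.6% of repeat-poor lncRNAs and 21.6% of windows. Runs of 10 A were in 4 members and runs of 8 dinucleotide units in 1.

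Of the ID, B2 and B1 motifs other than GAGGCCAGC, 5 had a carrier, and the carrier with the highest prepubertal FPKM was at 0 at puberty for each. For the ID motifs these were, for AGCTCAGTG, TCONS_00351540 (9.33 FPKM from 2 fragments, then 0) and, for GTTCGGTCC, TCONS_00133134 (1.63 FPKM from 1 fragment, then 0). For the B2 motifs these were TCONS_00052470 (22.5 FPKM from 2 fragments, then 0) and TCONS_00076938 (9.77 FPKM from 1 fragment, then 0), and for the B1 motif TCONS_00391893 (0.889 FPKM from 1 fragment, then 0). TCONS_00527011, the highest with AATAAA, had 30.7 FPKM from 3 fragments and 11.6 FPKM from 1 fragment. All were at or under 3 fragments in both libraries. Of all 477 members, 81.1% were at 0 at puberty. Of members with 1 and 2 prepubertal fragments, 5.13% and 16.8% were above 0 at puberty.

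By blastn, 169 members (35.4%) matched a lncRNA of another locus and 308 did not. Among the 169, the best match had a median identity of 80% (quartiles 74.7 and 85.2) over a median of 32.3% of the member. A close copy, with at least 90% identity over at least 80% of the length, was found for 19 members (3.98%, interval 2.56 to 6.14). For 18 of the 19 every close copy lay at the member's own locus. The other was TCONS_00106522 (215 nt, 20.5 and 0 FPKM), which matched TCONS_00439540 on the opposite strand at 98.1% identity over 211 bases (2.25 and 0 FPKM). The member with most close copies, TCONS_00258629, had 1.74 and 2.11 FPKM from 3.48 and 3.45 fragments, which are not whole. Identical runs of at least 30 bases joined 38 members into 18 groups, of which 17 stood at 1 locus each.

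By number of transcripts, the stretches shared with many loci were found mainly in longer lncRNAs, which offer more bases. The ID-like stretch of TCONS_00133134, at 1.63 and 0 FPKM, was matched by 84 lncRNAs at a median identity of 91.1%. Of these 82 were above 400 nt (4.69% of such lncRNAs), and 2 members (0.419%) held it, the carrier included. The B2-like stretch of TCONS_00444202 (2.70 and 0 FPKM) was matched by 79 lncRNAs at 85.3%, 57 of them on the opposite strand, and 2 members held it. The B1-like stretch of TCONS_00285047 (1.35 and 1.63 FPKM, 2 fragments in each library) was matched by 58 lncRNAs at 75.4%, and 4 members held it. The unnamed stretch of TCONS_00031260 (4.24 and 0 FPKM, 2 fragments and 0) was held by 5 members (1.05%), 2 of them above 0 at puberty. Per 100 kb of sequence the ID-like stretch occurred in 1.4998 members and 3.43 longer lncRNAs, and the B2-like in 1.4998 and 2.97. The B1-like stretch went the other way, with 2.9997 and 2.22, as did the unnamed stretch, with 3.75 and 1.80. Of repeat-poor lncRNAs, 1 held the ID-like stretch, 7 the B2-like, 2 the B1-like and 1 the unnamed stretch.

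**Figure D4:**
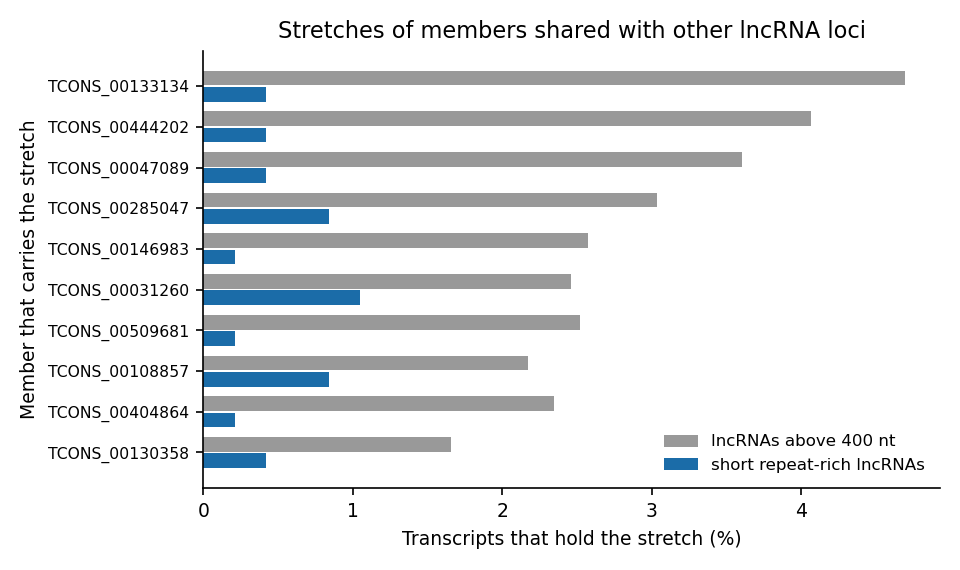
Bars give the percentage of lncRNAs above 400 nt (grey) and of short repeat-rich lncRNAs (blue) that held each of 10 stretches; each row is named by the member that carries the stretch. The stretch of TCONS_00133134 is in 4.69% of longer lncRNAs and 0.419% of members. In all 10 rows the grey bar is longer, with no correction for the greater length of those RNAs. Of the stretches not drawn, that of TCONS_00529991 was in 0.629% of members and 0.572% of longer lncRNAs, while most others went the other way.

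Some members matched sequence across or just upstream of the starts of known genes. They were compared with promoter windows alone and not with a genome, so a match does not place an RNA at that gene. Against promoter windows of RefSeq (build GRCr8, 250 bases before to 50 after each start), 20 members matched at 98% identity or more over at least 50 bases, and 18 of these matched 1 gene only. The match crossed the gene's start for 8 and did not for 10. The match was on the gene's strand for 9 and on the opposite strand for 9. Of the 18, 7 (38.9%, interval 20.3 to 61.4) were above 0 at puberty, beside 83 of the 459 other members (18.1%, interval 14.8 to 21.9), a difference of 20.8 percentage points (Newcombe interval 1.84 to 43.5). The match rule was set after the values were seen, so this difference is a description. Of the 7, 5 had more than 4 fragments before puberty, while the 11 at 0 had at most 2, and the part of fragment number in the difference was not tested.

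Of the 18 genes matched, 6 were protein-coding and 12 lncRNA genes. TCONS_00407177 matched Zfp933, a zinc finger gene, on its own strand at chr5:163568117-163568182, where its first base lay 16 bases before the gene's start and its first 66 bases, all unmasked, were identical. On the opposite strand to their gene, TCONS_00021170 (7.33 and 0 FPKM, 2 fragments) matched Sephs2, a gene of selenoprotein synthesis, at chr1:191325931-191326086, and TCONS_00480339 (10.4 and 0 FPKM, 2 fragments) matched Zfp445 at chr8:131350853-131350999. TCONS_00307049 (0.5003 and 0 FPKM) matched Uck1, a uridine-cytidine kinase gene, at chr3:35942393-35942463, and TCONS_00320107 (2.78 and 0 FPKM) matched Psmf1, a proteasome inhibitor gene, at chr3:160721017-160721083. TCONS_00250189 (1.25005 and 0 FPKM, 1 fragment) matched Shisal2b on the opposite strand at chr2:37754077-37754158, across its start, with 98.8% identity over 82 bases. This RNA is masked from end to end, and the match covers its bases 79 to 160 of 284. The match began 104 bases before the start of Zfp445, 180 before that of Uck1 and 102 before that of Psmf1. The mRNA values of Zfp933 were not analysed here. In the order before and at puberty, mRNA of Sephs2 was at 61.5 and 65.7 FPKM, Zfp445 at 29.3 and 29.6, Uck1 at 32.3 and 33.7 and Psmf1 at 20.6 and 23.1.

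TCONS_00404864 (297 nt) and TCONS_00030403 (362 nt) matched promoter windows of lncRNA genes. TCONS_00404864 matched sequence upstream of LOC134486997 at chr5:147874007-147874158, from 99 bases before its start and away from it on the opposite strand. It had 5.07 and 9.14 FPKM, 5.11 and 7.69 fragments. Bases 1 to 86 of this RNA, within the match, are a stretch shared with 42 other lncRNAs. Its place in the genome was not analysed. TCONS_00030403 matched across the start of LOC120100090 on its strand at chr1:40900577-40900835 with 98.1% identity. It had 9.66 and 5.22 FPKM, 21.4 and 9.44 fragments. The loci XLOC_446331, XLOC_414038, XLOC_181783 and XLOC_113511, chosen for quantitative PCR in rat, held 0 members.

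Genes known to act on repeat RNA were read beside all genes, of which 0.378% were at least 2-fold higher and 0.417% at least 2-fold lower at puberty. Of 18 genes for silencing of repeats, 15 were found, and 6 were higher and 9 lower at puberty, with 0 at least 2-fold either way and a median log2 ratio of -0.04, beside -0.01 over the 17742 genes above 0. Trim28, a co-repressor of repeats, had 55.3 and 53.9 FPKM and Dnmt1, the maintenance DNA methyltransferase, 7.79 and 7.09. All 17 genes for nuclear RNA decay were found, 11 higher and 6 lower with a median of 0.03. Exosc10, a catalytic subunit of the exosome, had 19.6 and 19.9 FPKM. Of the 19 genes for RNA polymerase III, 9 were higher and 10 lower. Polr3a, its largest subunit, had 15.96 and 15.1 FPKM and Maf1, its repressor, 76.0 and 73.1. In these 3 lists 0 genes were at least 2-fold higher or lower.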

How the data were processed

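Hypothalamic RNA of prepubertal and pubertal rats was depleted of ribosomal RNA and sequenced as strand-specific paired-end libraries. The authors used TopHat for alignment and both Scripture and Cufflinks 2.1.1 for assembly, where Cufflinks could build a transcript from any number of fragments. Transcripts that CNCI, CPC or Pfam-scan gave coding potential were removed by the authors. The authors estimated the deposited FPKM with Cuffdiff 2.1.1, per the labels on Rnor_5.0, scaled for library size and length. The methods name an annotation of Rnor_6.0 instead, and which was used for these files was not settled. How the 3 rats of a stage were combined and what lower case marks are not given in the sources used here. The depth of the libraries is not known. The authors' log2 ratios, p-values and q-values were not used.

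For each lncRNA the log2 ratio of pubertal to prepubertal FPKM was taken after adding 1 to both. No test between stages was possible with 1 library each. The FPKM of 1 fragment was read at each length from the lowest recurring value of short lncRNAs, and the pubertal step from a smooth ratio to the prepubertal step. In simulated data for 2304 short lncRNAs, 96.9% of whole fragment numbers of the first library and 97.7% of those of the second were recovered. Values that were not whole were scored in the first simulated library alone, where 0 of 171 were called whole. Of the 90 members above 0 at puberty, 21 were not counted as whole. How well such pubertal values are told from whole ones was therefore not tested, and both percentages hold for the simulated settings only. Shares carry Wilson intervals at 95%, differences of shares Newcombe intervals, ratios of single RNAs exact Clopper-Pearson intervals of their fragments. The first and second are taken over transcripts and the last over fragments, so none holds the spread between rats. Copies were sought with blastn 2.17.0 without masking (E-value up to 1e-05), on either strand. A shared stretch was the part of a member covered by at least 50% of the greatest number of lncRNAs of other loci, and was held by a lncRNA that overlapped it by at least 30 bases, for families of at least 10 lncRNAs. Promoter sequences came from RefSeq (GRCr8). FPKM of mRNAs were summed per gene. Exon numbers and genome positions on the build of the files were not analysed here.

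Transcripts were named by a rule: the 5 highest in each library, the 3 largest rises and falls above 0 in both, the 5 highest above 0 before puberty alone, 3 on each side of the 50% bound, and the highest carrier of each motif. Carriers of shared stretches, promoter matches and other transcripts were named after their values were seen. The members and lists were chosen with earlier results of these data known. Alternatives were other bounds on lower case and length, 1 transcript per locus, the FPKM of the comparison table, cutoffs of 0.1 and 1 FPKM, a pseudocount of 0.1, filters, scaling to equal medians, and other tolerances. The scripts ran in Python 3.11.15 and used networkx 3.6.1, scipy 1.17.1, pandas 2.3.3, matplotlib 3.10.9 and numpy 2.4.6.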

Additional observations from a re-analysis of the deposited data

How the results depend on the processing

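Of 60 alternatives, 43 left the value within its interval or within 1.5 times, 16 moved it and 1 turned its direction. With every 0 at puberty replaced by the FPKM of 3 fragments, the median log2 ratio was 0.74 in place of -1.59. This turn was set by the replacement itself, since most members had 1 or 2 fragments before puberty. Most moves came with length and with the treatment of low values. For members of 200 to 300 nt, 13.0% were above 0 at puberty, 87.0% before puberty alone and 60.4% on 1 fragment, with a median log2 ratio of -2.07. The median was -1.41 from 230 to 400 nt, -1.77 with FPKM of at least 1 in 1 library, -4.37 with a pseudocount of 0.1 and -0.41 over the 90 members above 0 in both libraries, of which 14 were at least 2-fold lower. With FPKM of at least 1 counted as measured, 13.6% were measured at puberty and 74.8% before puberty alone. At 75% lower case or more, 188 members remained, of which 2 were at least 2-fold higher, 140 at least 2-fold lower, and 6.91% had a close copy. The counts of 2-fold changes were compared as counts and not as shares. Those at 75% thus moved with the smaller number of members. From 200 to 300 nt, 292 of 331 were at least 2-fold lower, which was taken as the same as 355 of 477. The tally of 43 and 16 therefore does not show whether these shares moved. Close copies at 95% identity over 90% were 2.31%. The replacement of zeros and the ratio of fragments without TCONS_00438975, 0.237, were added after the data were examined. No paired analysis was possible because the files hold 1 library per stage. Few fragments limit the values, since 49.1% of members rest on 1 fragment before puberty.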
